A study of Neurospora crassa with 12 samples.

Results

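Described here are 8 Neurospora crassa genes of RNA interference in a transcript annotation that was assembled from RNA-seq of mycelia. The genes were chosen by name, and their transcripts were taken as all those that carry the NCU identifier of 1 of the genes, together with every unannotated transcript that overlapped them or lay within 2 kb on either strand. The choice gave 8 of the 9730 annotated genes and 29 of the 21475 transcripts in the annotation. Of the 29 transcripts, 10 were annotated and 19 were not.

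Mycelia of the wild type (WT) and of the deletion strains Δset-1 and Δdim-5 were used for RNA-seq of total RNA, each harvested either after 24 h of constant darkness (DD24) or after the same dark period followed by 30 min of light (LP30). The Δset-1 strain (Δkmt2) lacks the histone H3 lysine 4 methyltransferase and the Δdim-5 strain (Δkmt1) lacks the histone H3 lysine 9 methyltransferase. Both are knockout consortium deletions that were backcrossed to the WT strain, and how far all groups share its background was not checked. With 2 replicates a group the 6 groups make 12 libraries, and the analysed file is 1 annotation over all of them. It holds positions, strands and exons but no level, so depth per library is unknown. Neither a deletion nor light could therefore be compared from this annotation for any of the genes. The counts that follow describe what the pooled libraries gave, and genes are not replicates of a condition. Mycelial identity could not be checked by marker levels for the same reason.

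RNA interference uses double-stranded RNA to find and silence matching transcripts. An RNA-dependent RNA polymerase makes the double strand, a Dicer cuts it into small RNAs, and an Argonaute protein loaded with 1 strand of the small RNA binds the target. Neurospora has a vegetative form, quelling, which silences repeated transgenes, and a form of the sexual cycle, meiotic silencing, which silences genes that lack a pairing partner. The qde-1 gene encodes the polymerase of quelling, sad-1 that of meiotic silencing and rrp-3 a further homologue. The dcl-1 and dcl-2 genes encode the Dicers, qde-2 the Argonaute protein of quelling, qip an exonuclease that removes the passenger strand from it and qde-3 a RecQ DNA helicase.

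In the merged annotation 7 of the 8 genes had an assembly gene number from StringTie, the program that built the transcripts, whereas sad-1 had none and was carried over unchanged from the reference. Across the genome 8.47% of annotated genes were carried over in this way (824 genes, exact 95% interval 7.92 to 9.04). No unannotated transcript overlapped any of those 824 genes on either strand. An unannotated isoform, defined as a transcript that shared at least 1 bp of exon with the gene on the same strand, was found for 3 of the 8 genes, namely dcl-1, dcl-2 and qip, against 36.4% of all genes (35.5 to 37.4). An antisense transcript, which overlapped exon sequence of the opposite strand only, was found for qde-1 alone among the 8, against 21.2% of all genes (20.4 to 22.1). The count was 0 of the 8 where an overlap of at least 100 bp or of 50% of the antisense transcript was required. It was 2 where annotated transcripts of the opposite strand were counted too. The share of 21.2% holds for an overlap of at least 1 bp, and none is given for these other settings. A transcript of 1 exon shows no splice sites, so its strand rests on the library preparation. Under the main definitions, counts of this size over 8 genes lie close to the shares of all genes and are given as a description.

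**Figure D1:**
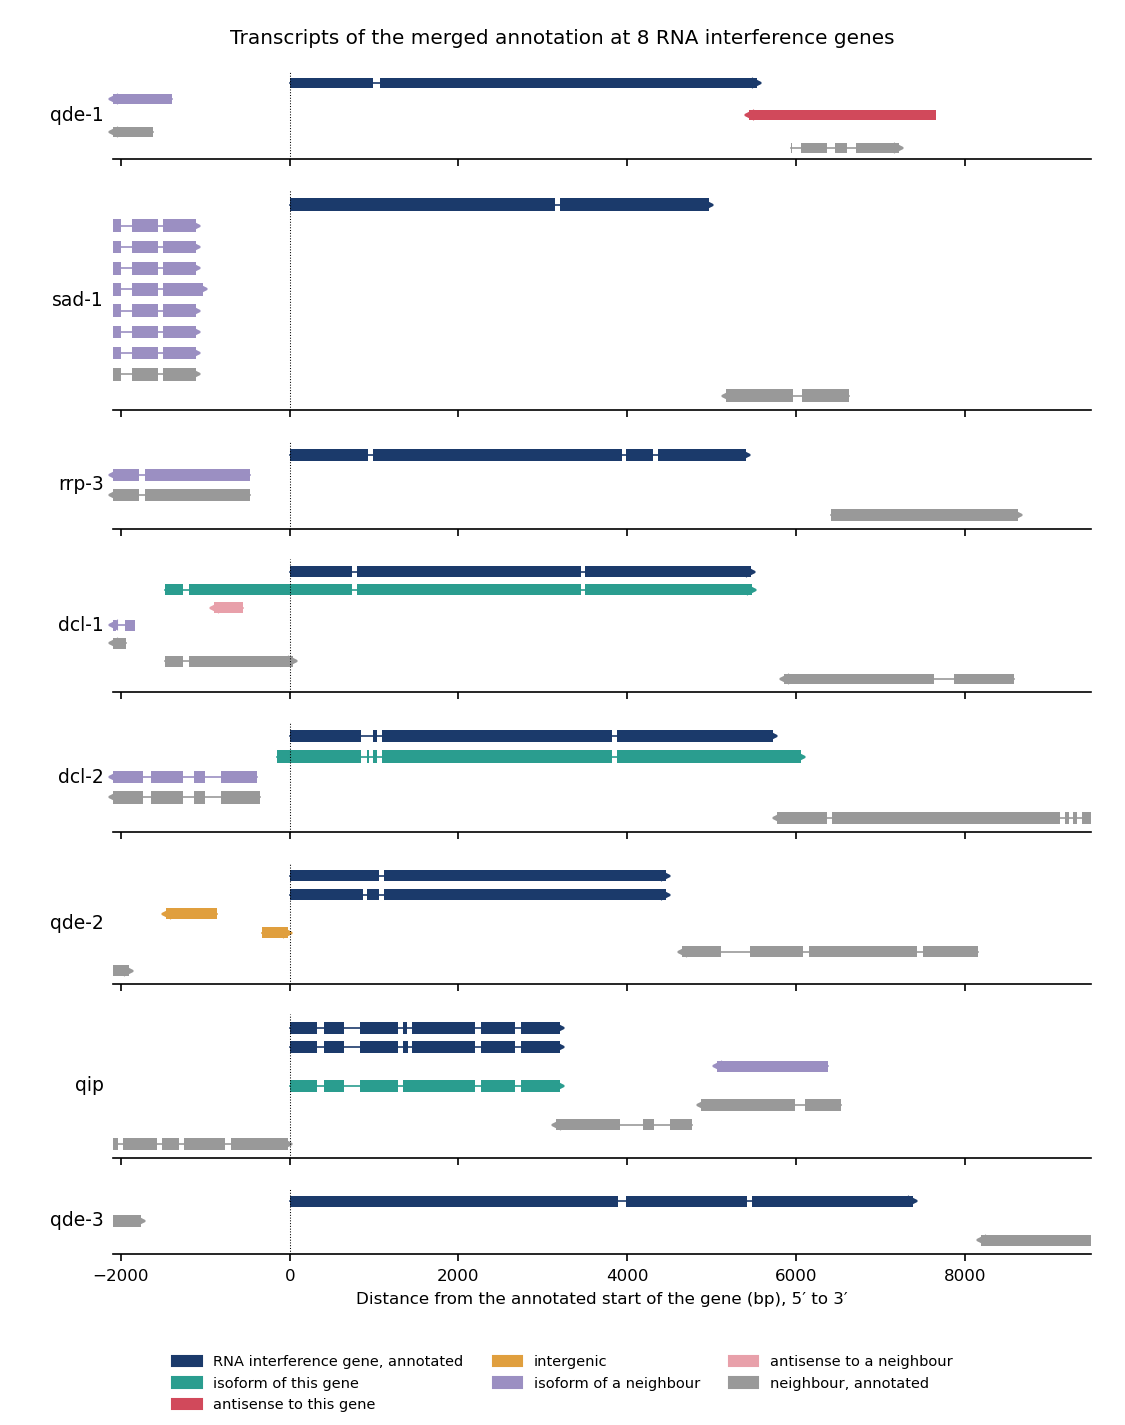
Transcripts at the 8 RNA interference genes, drawn in the direction of each gene with the distance in bp from its annotated start on the x axis. Boxes are exons, arrowheads give the direction, colours give the kind of transcript, and transcripts are cut at the borders of the drawing. The dcl-1, dcl-2 and qip genes have an unannotated isoform (green) and qde-1 has an antisense transcript (red) across its 3′ end.

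The genes were long, and most had fewer introns per kb of exon than the median gene. The median exonic length of the longest annotated transcript was 5289.5 nt over the 8 genes, against 1940 nt over all 9730 genes. The helicase gene qde-3 was the longest at 7225 nt, and only 68 annotated genes, 0.699%, were longer. The exonic length was 5469 nt for dcl-2, 5451 nt for qde-1, 5353 nt for dcl-1 and 5226 nt for rrp-3. The 3 polymerase genes and both Dicer genes thus lay within a narrow range, with sad-1 at 4917 nt. The Argonaute gene qde-2 had 4405 nt. The exonuclease gene qip, with 2689 nt, was the only one of the 8 below 4000 nt. Exonic lengths of 4000 nt or more, a limit chosen after the values were seen, were found in 7 of the 8 genes and in 9.12% of all genes.

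**Figure D2:**
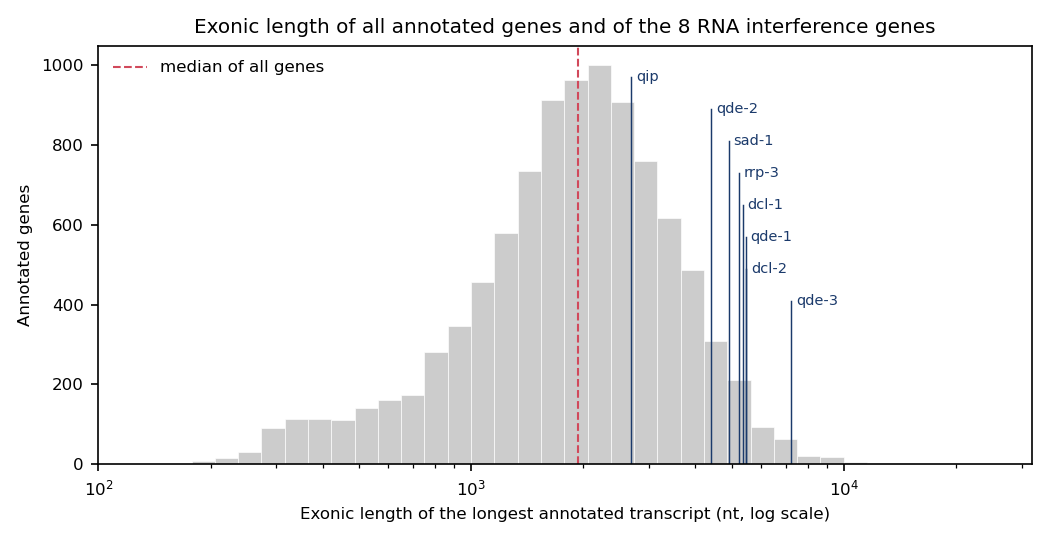
Exonic length of the longest annotated transcript in nt (log scale) for all 9730 annotated genes (grey bars, number of genes per bin), with the 8 RNA interference genes as blue lines whose heights only separate the names. All 8 lie above the median of all genes (dashed line, 1940 nt), from 2689 nt for qip to 7225 nt for qde-3.

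None of the 8 genes lacked introns, against 18.4% of all genes without one. The median number of exons was 3 over the 8 genes and 2 over all genes (quartiles 2 and 3). The qip gene had 7 exons in its longest annotated transcript, and 1.25% of all genes had more. The other 7 genes had 2 to 4 exons, which left qde-1, sad-1 and qde-2 with 2 each, dcl-1 and qde-3 with 3, and dcl-2 and rrp-3 with 4. Per kb of exon there were 2.23 introns in qip and 0.183 in qde-1, with a median of 0.325 over the 8 genes and 0.729 over all genes. A single exon of 4467 nt held 81.9% of the exonic length of qde-1. In qde-2 the largest exon of 3342 nt held 75.9%, and in qip the largest of 744 nt held 27.7%.

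The 19 introns in the longest annotated transcripts of the 8 genes had a median of 62 nt, against 75 nt (quartiles 62 and 112 nt) for the 16983 introns in the longest transcripts of all genes. With the other annotated transcripts of qde-2 and qip the 8 genes had 21 introns, with a median of 60 nt. Only intron 1 of dcl-2 at 151 nt and intron 2 of qip at 181 nt exceeded 100 nt. The shortest was an intron of 45 nt in 1 annotated transcript of qde-2. Of the introns in the longest transcripts of all genes, 0.206% were that short or shorter. Intron length was a multiple of 3 for 6 of the 21 introns, and for 33.6% of the introns in the longest transcripts of all genes. These sets differ, since the 21 include introns of the other annotated transcripts.

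**Figure D3:**
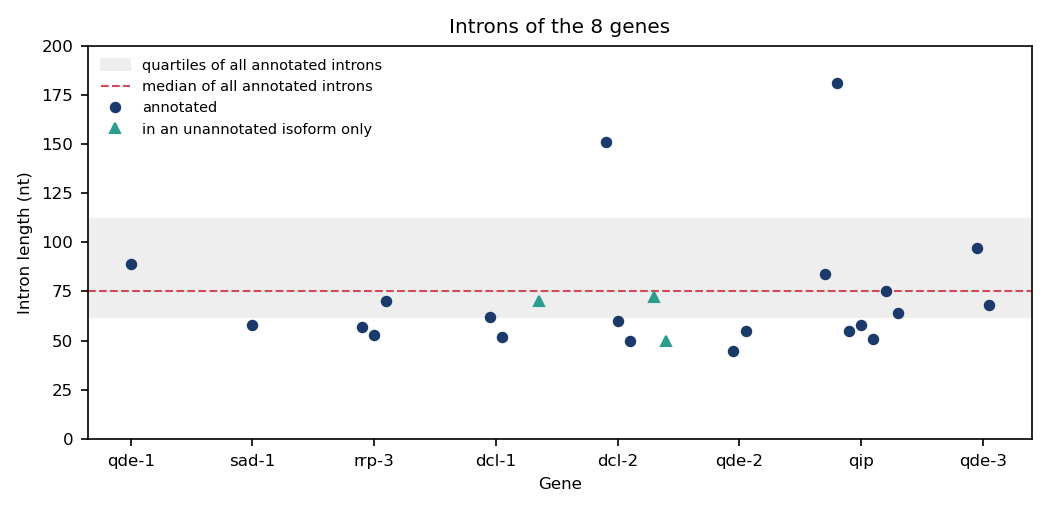
Length in nt of each intron of the 8 genes, annotated for that gene (circles) or present only in an unannotated isoform of it (triangles). The dashed line is the median (75 nt) and the band the quartiles (62 to 112 nt) of the introns of all genes. The triangle at dcl-1 (70 nt) is the annotated intron of its upstream neighbour pdx-4. The annotated intron 1 of dcl-2 (151 nt) and intron 2 of qip (181 nt) lie above the band.

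Among the polymerases, qde-1 (NCU07534) lies on the plus strand of chromosome III at 4461937 to 4467476 in the NC12 genome. It had 1 annotated transcript with 2 exons, an intron of 89 nt and no unannotated isoform. The antisense transcript MSTRG.6191.1 (4467379 to 4469591, minus strand, 1 exon, 2213 nt) ended inside qde-1 and overlapped its last exon by 98 bp, which is 1.80% of the exonic length of qde-1 and 4.43% of the antisense transcript. It started 430 bp beyond the 3′ end of the downstream neighbour NCU16695, a gene in tandem with qde-1 at a gap of 403 bp, and covered all 972 nt of the exons of that gene before it reached qde-1. Most of this transcript was therefore antisense to NCU16695 or lay outside both genes. On the other side of qde-1, sah-3 is transcribed away from it with 1623 bp between the annotated starts. An isoform of sah-3, MSTRG.6189.2, began 234 bp upstream of the annotated start of that gene and left 1389 bp to qde-1.

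The sad-1 gene (NCU02178) lies on the plus strand of chromosome I at 969499 to 974473 and had 1 annotated transcript of 2 exons with an intron of 58 nt. No assembled transcript overlapped it on either strand. Genes that were carried over were usually short, with a median exonic length of 882 nt against 2035.5 nt for the other 8906 genes. Among the 887 genes with at least 4000 nt of exon, 0.564% were carried over, which are 5 genes, and sad-1 was the third longest of them after NCU05047 (9249 nt) and per-1 (7271 nt). The upstream neighbour in tandem, NCU02179, had 7 unannotated isoforms, all of which passed its annotated 5′ end, by 2851 to 2960 bp. Its 3′ side faced sad-1, where 6 of the 7 isoforms kept the annotated end and MSTRG.293.4 passed it by 76 bp. This left at least 1029 bp without an assembled transcript before the start of sad-1. Downstream, the convergent gene NCU16321 ended 201 bp from sad-1.

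The rrp-3 gene (NCU08435, listed as rrp3 by RefSeq) lies on the plus strand of chromosome II at 4056176 to 4061581. It had 4 exons, introns of 57, 53 and 70 nt, and neither an isoform nor an antisense transcript. Its upstream neighbour NCU08434 is divergent, with 471 bp between the annotated starts, and the isoform MSTRG.4595.1 of that gene kept the start and passed the 3′ end by 67 bp. The start of rrp-3 is known here from the reference model only, and no unannotated transcript narrowed the gap between both starts. The tandem gene NCU08436 followed 1005 bp downstream.

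Among the Dicer genes, dcl-1 (NCU08270) lies on the minus strand of chromosome IV at 2592691 to 2598157. Its annotated 5′ end overlapped the 3′ end of the tandem gene pdx-4 (NCU08269) by 37 bp. The unannotated isoform MSTRG.7171.1 (2592680 to 2599638, 4 exons, 6775 nt) joined both genes. It contained all 5353 nt of dcl-1 exon and all 1448 nt of pdx-4 exon, began at the annotated start of pdx-4, kept both introns of dcl-1 and the single intron of pdx-4 (70 nt), and fused the last exon of pdx-4 with the first exon of dcl-1 into an exon of 1934 nt. At the 3′ end it passed dcl-1 by 11 bp. An isoform that shared exon sequence with a neighbour on the same strand was found for 5.34% of all genes, and dcl-1 was the only case among the 8. This share counts any shared base, so genes whose annotated models already overlap can enter it without being joined. The part of the 5′ overlap of the annotated models in the joining of pdx-4 with dcl-1 was not tested.

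Upstream of dcl-1 on the opposite strand, the single-exon transcript MSTRG.7172.1 (2598710 to 2599055, 346 nt) started and ended inside pdx-4, 552 bp from the start of dcl-1. It was antisense to pdx-4 and to the joint transcript but did not reach dcl-1 as annotated. The isoform MSTRG.7173.1 of the divergent gene NCU08268 began 358 bp from pdx-4. Downstream, the convergent gene NCU08271 ended 397 bp from dcl-1 and 386 bp from the joint transcript.

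The dcl-2 gene (NCU06766) lies on the minus strand of chromosome II at 2009452 to 2015181. Its isoform MSTRG.3909.1 (2009121 to 2015336, 5 exons, 5984 nt) differed from the annotated transcript in 3 places. In the annotation, intron 1 is 151 nt long. The isoform had an additional exon of 29 nt inside it (2014241 to 2014269), flanked by introns of 72 and 50 nt that used the annotated outer ends. Its other introns, of 60 and 50 nt, were as annotated. An isoform with an intron outside the annotation was found for 18.8% of all genes, and dcl-2 was the only case among the 8. Exons of 29 nt or less made up 4.63% of the 9042 internal exons of the longest transcripts, whose median was 228 nt. The length of 29 nt is not a multiple of 3, and whether the exon is coding could not be read from the file.

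Both ends of the dcl-2 isoform lay outside the annotated gene. It passed the 5′ end by 155 bp and thereby left 197 bp, in place of 352 bp, between the starts of dcl-2 and the divergent gene NCU06765. An isoform of NCU06765, MSTRG.3910.2, began 31 bp inside that gene. At the 3′ end the extension was 331 bp. It crossed the annotated gap of 45 bp to the convergent gene NCU06767 and overlapped the last exon of that gene by 286 bp on the opposite strand. As annotated, dcl-2 and NCU06767 share no base. An isoform past the 5′ end was found for 14.3% of all genes and an isoform past the 3′ end for 12.9%, and in both cases dcl-1 and dcl-2 were the genes concerned among the 8. The 5′ extension of 1481 bp at dcl-1 came from the joining with pdx-4, and the 3′ extension of dcl-1 was short at 11 bp. At dcl-2 the 5′ extension joined no other gene and the 3′ extension reached into a neighbour. No share of all genes is given for this combination.

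**Figure D4:**
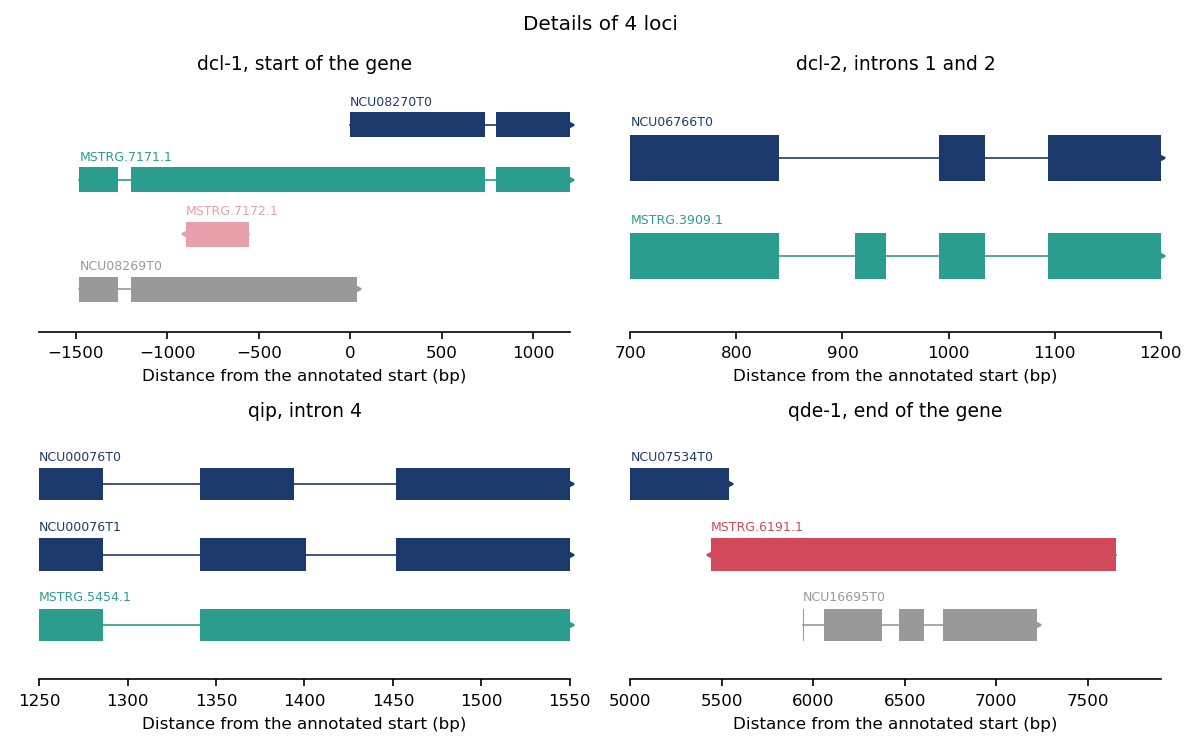
Exons (boxes) and introns (lines) at 4 loci, with the distance in bp from the annotated start of the gene on the x axis and arrowheads for the direction. MSTRG.7171.1 joins pdx-4 (NCU08269) with dcl-1, MSTRG.3909.1 has an additional exon of 29 nt in intron 1 of dcl-2, MSTRG.5454.1 keeps the sequence of intron 4 of qip, and MSTRG.6191.1 overlaps the end of qde-1 by 98 bp.

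The effector genes qde-2 and qip were the only ones of the 8 with 2 annotated transcripts, as RefSeq also lists, against 9.23% of all genes with 2 or more. The qde-2 gene (NCU04730) is on chromosome VI, minus strand, from 574929 to 579388. Its transcripts had the same ends and shared an intron of 55 nt, and NCU04730T1 had the further intron of 45 nt in what is exon 1 of NCU04730T0. Their exonic lengths were 4405 and 4360 nt. The difference of 45 nt is a multiple of 3. No unannotated isoform and no antisense transcript was found.

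The upstream region of qde-2 held 2 intergenic transcripts, which are transcripts that touched no annotated gene on either strand. MSTRG.10726.1 (579409 to 579721, 1 exon, 313 nt) was on the strand of qde-2 and ended 20 bp before its annotated start. MSTRG.10723.1 (580251 to 580851, 1 exon, 601 nt) was on the opposite strand, began 862 bp from qde-2 and pointed away from it. Between them lay 529 bp. The next annotated gene upstream, sah-2, is in tandem with qde-2 at 1909 bp, so both transcripts fell in this gap, the second at 446 bp from sah-2. An intergenic transcript within 2 kb was found for 29.1% of all genes, and among the 8 for qde-2 only. Whether MSTRG.10726.1 is a transcript of its own or the separated 5′ part of qde-2 was not tested. Downstream, the convergent gene NCU04729 ended 186 bp from qde-2.

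The qip gene (NCU00076) lies on the minus strand of chromosome III at 2528710 to 2531908. Its annotated transcripts differed by 7 nt at the 5′ end of intron 4, which was 58 nt long in NCU00076T0 and 51 nt long in NCU00076T1. The unannotated isoform MSTRG.5454.1 (6 exons, 2740 nt) had the same ends, kept the other 5 introns and retained intron 4 in full. It was 58 nt longer than NCU00076T0 and 51 nt longer than NCU00076T1, and of these lengths 51 is a multiple of 3 and 58 is not. All 3 transcripts of qip thus differed at this intron alone, which the 2 annotated ones splice at different 5′ ends and the assembled one leaves in. An isoform that retained an annotated intron was found for 22.2% of all genes and, among the 8, for qip only.

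The qip gene also lay close to both neighbours. It began 21 bp after the end of mus-52 (NCU00077), a tandem gene that encodes a Ku protein of nonhomologous end joining. Its 3′ end overlapped that of the convergent gene tim14 (NCU00075), which encodes a part of the mitochondrial import motor, by 42 bp of annotated exon. No assembled transcript lengthened this overlap. Annotated exons overlapped an annotated gene on the opposite strand in 21.9% of all genes and, among the 8, in qip only. An overlap of the annotated span with another gene on either strand was found for 22.8% of all genes and for qip and dcl-1 among the 8. Within 2 kb downstream, MSTRG.5451.2 was a single-exon isoform of NCU00074 at 1860 bp.

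The helicase gene qde-3 (NCU08598) lies on the plus strand of chromosome I at 9534663 to 9542052. It had 3 exons, introns of 97 and 68 nt, an assembly gene number and no unannotated transcript within 2 kb on either strand, as was the case for 12.3% of all genes. Its tandem upstream neighbour NCU08597 ended 1762 bp away and its convergent downstream neighbour NCU08599 lay at 802 bp.

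The arrangement of neighbours could be set against that of all genes. The downstream neighbour was convergent for 6 of the 8 genes (sad-1, dcl-1, dcl-2, qde-2, qip and qde-3) and for 55.3% of all genes. The upstream neighbour was divergent for 3 of the 8 (qde-1, rrp-3 and dcl-2) and for 55.1% of all genes. The median gap to the downstream neighbour was 299 bp for the 8 genes and 477 bp for all genes, and that to the upstream neighbour was 788 bp and 782 bp. An assembled transcript of 1 of the 8 genes overlapped a convergent neighbour only at dcl-2 (286 bp) and at qip (42 bp, as annotated). The share of all genes with such an overlap is not given.

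**Figure D5:**
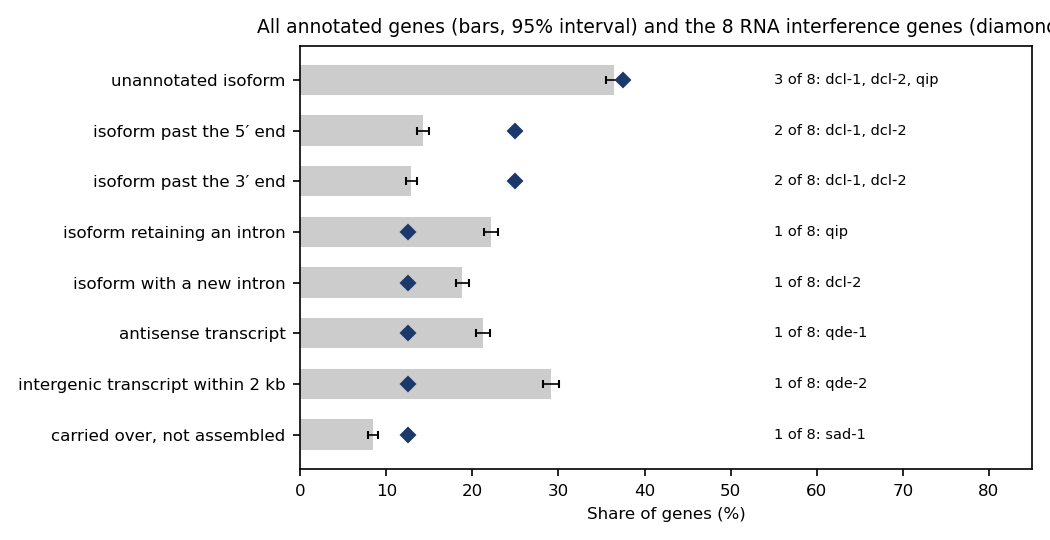
Share in percent of all 9730 annotated genes (bars, with exact 95% intervals) and of the 8 RNA interference genes (diamonds) that have each feature, with the genes named at the right. Each gene moves a diamond by 12.5 percentage points, and the diamond for an unannotated isoform (3 of 8) lies beside the bar of 36.4%.

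Isoforms were more often assembled for long genes. Among the 887 genes of at least 4000 nt, 53.7% had an unannotated isoform, 35.7% an isoform that retained an intron and 31.8% one with an intron outside the annotation. Of the 7 RNA interference genes of that length, 2 had an isoform. The genes qde-1, rrp-3, qde-2 and qde-3 had an assembly gene number but no isoform beside the reference models. The merge included the reference models, so whether reads rebuilt these structures is not known. An antisense transcript was found for 21.4% of the long genes, close to the share of all genes. Of the long genes, 19.5% had 2 or more annotated transcripts, against 9.23% of all genes. An intergenic transcript within 2 kb was found for 39.5% of the long genes, against 29.1% of all genes. No unannotated transcript lay within 2 kb for 7.10% of the long genes, against 12.3% of all genes.

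The list of other meiotic silencing and small RNA genes held 8 locus tags, of which 3 carry the listed name in RefSeq. A further tag carries another symbol there (atrx) and was left out. The sad-2 gene (NCU04294), whose product recruits SAD-1, had 2 exons and 3294 nt on chromosome V and was carried over without an assembled transcript. The sms-2 gene (NCU09434), which encodes the Argonaute protein of meiotic silencing, had a single exon of 3364 nt on chromosome VII and was also carried over. The sad-3 gene (NCU09211), which encodes a helicase-like protein, had 6 exons and 3483 nt on chromosome I and an assembly gene number. It had the antisense transcript MSTRG.1921.1 (5853652 to 5854148, 497 nt) with an overlap of 367 bp inside the gene and the intergenic transcript MSTRG.1922.1 (2260 nt) 523 bp upstream on its own strand. None of the 3 had an isoform. Of these 3 genes 2 were thus carried over, against 8.47% of all genes, and of the 4 further locus tags on the list, which RefSeq gives no symbol, 1 (NCU06147). The number of genes is small, they were named with earlier results of these data known, and no test was made.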

How the data were processed

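Ribosomal RNA was depleted, and the libraries were made with a TruSeq kit and sequenced as paired ends, per the labels. The authors mapped the reads to NC12 with HISAT2 version 2.1.0, with the existing annotation as a guide. They assembled each sample with StringTie version 1.3.3b and merged the assemblies with the NC12 annotation. The study states that strand was kept (the named kit does not itself say so), and strands are used here as the file gives them. The score column of the deposited file holds the constant 1000, or a dot for reference genes carried over, and is no level. The other values of the deposited annotation, transcript and exon positions counted from 1, carry no unit of expression. Replicates are pooled, so they could not be compared. The authors' Cuffdiff results were not used. The study itself looked at the expression of known RNA interference components and reports no major defects, which was not examined here.

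Transcripts with an NCU identifier were called annotated. Exon overlaps, ends, introns and distances were computed in Python 3.11.15 with numpy 2.4.6, exact Clopper-Pearson intervals, which cover counting error only, with scipy 1.17.1, and figures with matplotlib 3.10.9. Names came from the RefSeq table of NC12, which gave the same ends for all 8 genes. All planted transcripts were recovered when the classification was run on simulated coordinates (300 of 300, isoforms, antisense and upstream transcripts). No reads were simulated, so whether StringTie would assemble such transcripts was not checked by them. The transcripts were planted only at genes that stand clear of other annotated genes, which none of the 8 genes does. Joined, overlapping or closely convergent loci were therefore not covered by this check. The named genes are the 8, every unannotated transcript within 2 kb, the nearest annotated gene on each side and a list of other meiotic silencing genes. The genes and lists were chosen with earlier results of these data known.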

Additional observations from a re-analysis of the deposited data

How the results depend on the processing

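All values come from 1 pooled annotation, so leaving out a replicate was not run. No paired analysis was possible because the file holds no value per library. Of 22 alternatives, 13 gave the main value or one close to it. With an overlap of at least 100 bp, or of 50% of the antisense transcript, 0 of the 8 genes had an antisense transcript in place of 1, since that at qde-1 overlaps by 98 bp, and 2 had one when annotated genes on the opposite strand were counted too (qde-1 and qip). With a least extension of 50 bp or 100 bp, 1 gene (dcl-2) in place of 2 had an isoform past the 3′ end. The unannotated transcripts within 2 kb that are no isoform of the genes numbered 16, and 4 within 500 bp, 6 within 1000 bp, 26 within 5000 bp, or 10 with 1 counted per assembly gene. The counts of genes with an isoform (3) and with an intron outside the annotation (1) were the same under every alternative run for them. Shares of all genes are given for the main settings only, so counts under the alternatives are not set against them. Depth is unknown, so an isoform or antisense transcript that was not found may be absent or below what was assembled.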

Other observations

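The list of other genes also held 4 locus tags that RefSeq lists without a symbol, and these are given as values only. NCU06147 (1257 nt) was carried over. NCU01591 (1701 nt, 3 exons) had an assembly gene number and no isoform. NCU01917 (3189 nt) and NCU03337 (1853 nt) had 2 unannotated isoforms each, of which the longest at NCU01917 passed its 5′ end by 2977 bp. None of the 4 had an antisense transcript. The 5 carried-over genes with at least 4000 nt of exon, chosen after their values were seen, were NCU05047, per-1, which is a gene of perithecial pigment, sad-1, NCU07433 (4074 nt) and NCU03481 (4035 nt).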
